A study of Mus musculus with 12 samples.

Results

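The lysosome genes described here are 46 members: the TFEB family of transcription factors (3 genes), lysosomal membrane proteins (5), cathepsins (6), glycosidases (9), sulfatases (3), lipid hydrolases (4), a peptidase and cofactors (4) and the vacuolar proton pump (12). The list was taken by gene symbol from the 38481 genes of the series. The rule uses no measured value, but the members were chosen with earlier results of these data known. Of the members, 38 had enough counts to be tested. The cells were C2C12, a mouse myoblast line that can fuse into muscle fibres, and the study asked what part Crebl2, a bZIP protein related to CREB, has in the transcriptional answer to rapamycin. All cells carried an siRNA for 3 days, against Crebl2 or, as control, against Renilla luciferase (Luc), and then received 20 nM rapamycin, which inhibits the kinase complex mTORC1, or its solvent ethanol for 12 h. The 4 groups (Luc siRNA in ethanol, Luc siRNA in rapamycin, Crebl2 siRNA in ethanol, Crebl2 siRNA in rapamycin) held 3 libraries each. They come from 1 cell line and, per the labels, 1 siRNA sequence against Crebl2. Whether the 3 libraries of a group are separate cultures is not stated, so every p-value rests on the spread among libraries, which may be technical.

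Lysosomes break down proteins, glycans and lipids with hydrolases that work at acid pH, and the vacuolar ATPase (V-ATPase) pumps in the protons: its V1 sector splits ATP in the cytosol and its V0 sector carries protons through the membrane. Tfeb, Tfe3 and Mitf encode related basic helix-loop-helix leucine zipper factors that bind E-boxes of the core CACGTG, and many lysosomal genes carry it within a longer palindrome, known as the CLEAR element. mTORC1 sits on the lysosome surface and phosphorylates these factors, which holds them in the cytoplasm, while the phosphatase calcineurin reverses this.

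RefSeq promoter windows of 300 bases (250 before and 50 after each start, GRCm38.p6) were found for 41 members, and 13 of them (31.7%) held CACGTG, against 8.09% of 27025 genes with a window. The palindrome reads the same on both strands. The windows follow RefSeq starts, which for some members differ from the gene coordinates given below. The windows of Ctsl, Atp6v1a, Scarb2, Cd63 and Atp6v0a1 lie wholly inside the gene, so the bases just before it were not searched. Some cores of other members, such as that of Naglu, also lie after the start of the gene coordinates. The 8-base form GTCACGTG, searched on both strands and containing the core, was in 10 members (24.4%) and in 2.55% of all genes, and GTCACGTG followed by AC, the full palindrome, was in 0 of the 41 and in 0.370% of all genes. The following stretches were chosen among members that held the core, from membrane genes and from enzymes called in some comparison below. The capitals mark the core. Gm2a and Ids changed more with the Crebl2 siRNA in ethanol than Glb1 or Gla, and their windows held no core. Naglu, Ctsf and Ctsl, whose windows held it, changed more than Ids in that comparison, in either direction. Lamp1 held 4 cores, at positions −61 to −15 from its start, and the other 12 members held 1 or 2.
Lamp1, chr8:13159086-13159165, plus strand: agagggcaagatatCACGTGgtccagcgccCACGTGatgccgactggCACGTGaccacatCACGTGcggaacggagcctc
Mcoln1, chr8:3500434-3500493, plus strand: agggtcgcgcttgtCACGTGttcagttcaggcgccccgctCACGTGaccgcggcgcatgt
Naglu, chr11:101070007-101070040, plus strand: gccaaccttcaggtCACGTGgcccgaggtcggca
Glb1, chr9:114401016-114401049, plus strand: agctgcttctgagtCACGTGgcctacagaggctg
Arsa, chr15:89477421-89477454, minus strand: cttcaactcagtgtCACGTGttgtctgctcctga
Ctsf, chr19:4855072-4855105, plus strand: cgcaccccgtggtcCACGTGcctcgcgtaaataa
Ctsl, chr13:64370737-64370770, minus strand: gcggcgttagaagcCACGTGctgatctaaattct
Gla, chrX:134601180-134601246, minus strand: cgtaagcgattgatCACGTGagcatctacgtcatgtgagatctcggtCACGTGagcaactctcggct
The cyclic AMP response element TGACGTCA, the palindrome that CREB itself binds, was in the windows of 2 members (4.88%), Gusb and Mitf, against 2.03% of all genes. It is in capitals here.
Gusb, chr5:130003032-130003067, minus strand: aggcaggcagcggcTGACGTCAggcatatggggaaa
Mitf, chr6:97991616-97991651, plus strand: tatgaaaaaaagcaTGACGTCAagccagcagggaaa
A match is a string of letters and not a measured binding site.

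**Figure D1:**
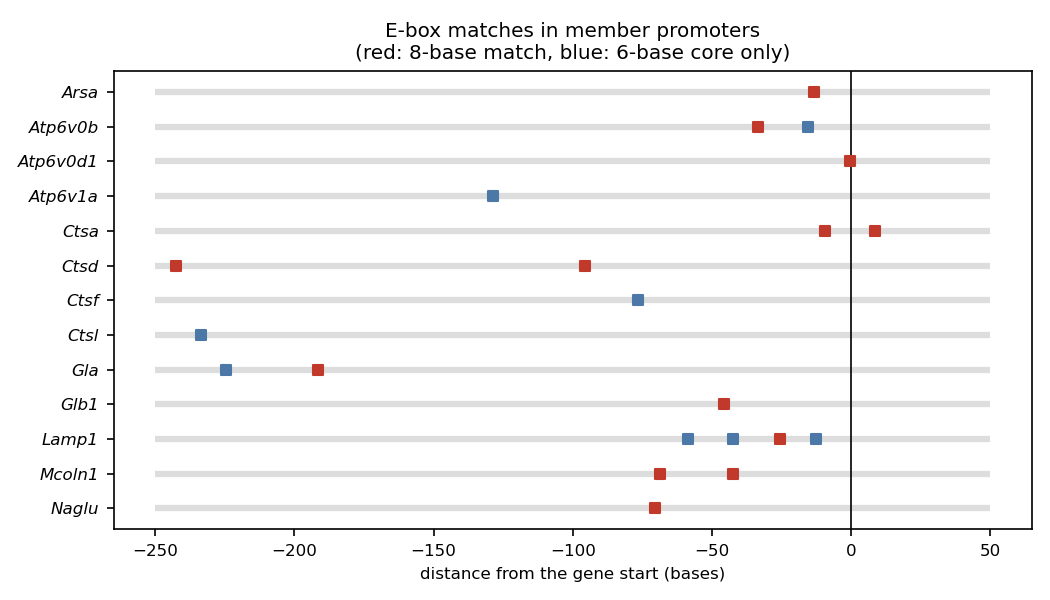
Positions of CACGTG in the promoter windows of the 13 members that held it, in bases from the RefSeq start (x axis, negative before the start); grey bars are the 300-base windows, red squares mark cores inside GTCACGTG and blue squares cores alone. Lamp1 had 4 matches in its last 61 bases before the start, while those of Ctsl and Gla lay between −236 and −194.

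Library totals ran from 33404087 to 42891015 counts. The summed level of 6 myoblast markers was 3596 to 4606 CPM (library-scaled read counts after TMM) over the 12 libraries, while 8 macrophage markers summed to at most 3.05 CPM, 6 melanocyte markers to at most 2.35 CPM and 4 osteoclast markers to at most 0.290 CPM. In each group 3 or 5 of the macrophage markers were at 0. Several markers of other cell types have few bases that belong to a single listed transcript, such as Ptprc (8.38%), Adgre1 (3.52%), Acp5 (16.6%) and Tyrp1 (3.64%). For others, such as Tyrobp, Dct and Sox10, the share was 100%. Where the share is low, a count of 0 cannot be read as absence, and its part in these sums was not tested. The myoblast markers Cdh15 and Itga7 fell in rapamycin with the Luc siRNA (log2 fold changes −0.80 and −0.81) while Vim of the same list rose (0.83). With the Crebl2 siRNA rapamycin moved these 3 the same ways (−0.39, −0.42 and 0.83) and also raised Myod1 (0.37). Against the Luc siRNA, the Crebl2 siRNA raised Vim and lowered Myod1 and Myf5 in ethanol (0.38, −0.28 and −0.26). In rapamycin it raised Cdh15, Itga7 and Vim and lowered Myf5 (0.41, 0.34, 0.38 and −0.20), and Des, the sixth marker, was called in no comparison. The macrophage marker Lyz2 was lower with the Crebl2 siRNA in rapamycin (log2 fold change −0.50), where Cd68, the other tested macrophage marker, was 0.31 ± 0.31 and not called. The melanocyte marker Tyr was higher in ethanol (log2 fold change 1.11), where Pmel, the other tested melanocyte marker, was −0.55 ± 0.33 and not called. The part of these markers in the changes below was not tested. Crebl2 itself stood at 23.8, 25.3 and 26.2 CPM in Luc siRNA ethanol libraries and 4.87, 7.41 and 6.02 CPM with its own siRNA there. It stood at 40.0, 36.4 and 36.3 CPM in Luc siRNA rapamycin libraries and 10.7, 8.97 and 9.49 CPM in Crebl2 siRNA rapamycin libraries, so all 6 libraries with its siRNA lay lowest.

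The deposited counts are per transcript, and how reads that fit several listed transcripts were handled is not stated. Members with few bases in a single transcript had low counts, and whether such reads were left out was not tested. The share of a member's bases that belong to a single transcript is called its countable share here. It was at least 90% for 27 members, all of which were tested, with mean counts per library from 989 to 71863. Of 10 members between 10% and 90%, 8 were tested, and of 9 members under 10%, 3 were. The 8 untested members were Tfe3 (mean count 1.5, countable share 9.5%), the cathepsins Ctsa (0, 31.8%) and Ctsd (5.75, 8.79%), the glycosidase Idua (0.167, 4.89%), the acid lipase Lipa (0, 0.135%) and the pump genes Atp6v0a1 (2.08, 1.41%), Atp6v1h (2.5, 14.3%) and Atp6ap1 (6, 7.27%). Their low counts cannot be read as low expression.

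**Figure D2:**
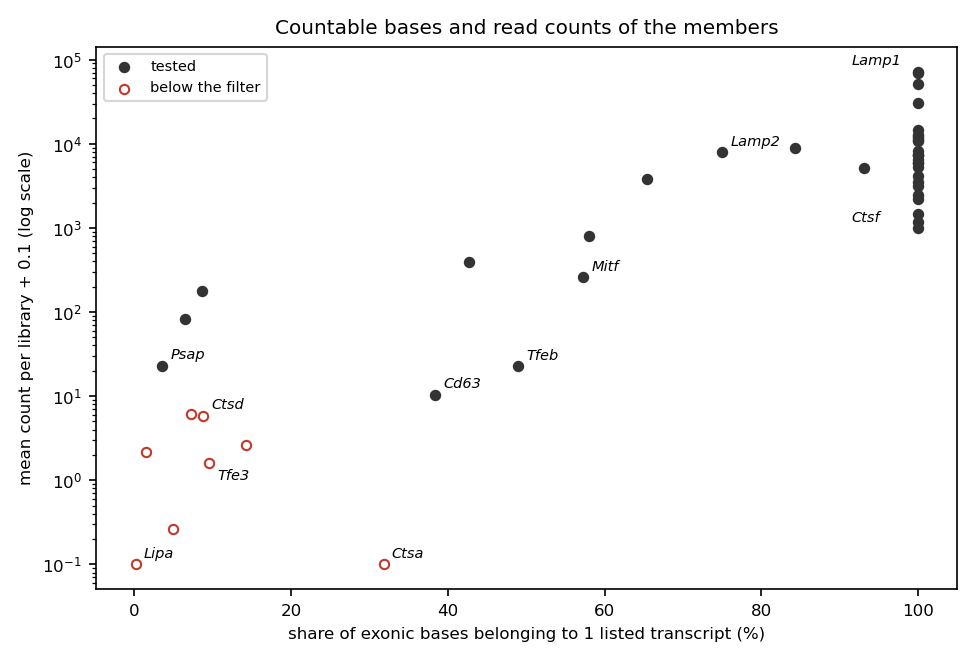
Mean count per library plus 0.1 (y axis, log scale) against the share of exonic bases that belong to 1 listed transcript (x axis, percent) for the 46 members; filled points were tested and open red points fell below the count filter. All 27 members at 90% or more were tested, and the 8 untested members all lay under 32%.

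Among the 27 members with at least 90% countable bases, levels per kilobase of countable sequence in the Luc siRNA ethanol group spanned 83.8-fold. Lamp1, the heavily glycosylated protein that lines the lysosomal membrane, was highest at 823 ± 30.0 CPM per kilobase (SD, n = 3). Below it came the cysteine proteases Ctsl (660.0 ± 9.2) and Ctsb (400.2 ± 1.43), the progranulin gene Grn (330.0 ± 8.27), the carboxypeptidase Ctsz (251 ± 14.1) and Hexa (209 ± 4.22). The pump subunits with full coverage lay in the middle, from Atp6v1e1 (168 ± 3.62) to Atp6v1d (40.4 ± 0.789). The lowest were Manba (11 ± 0.503), Gla (10.5 ± 0.263) and Ctsf (9.83 ± 0.464). In this order 7 of 26 neighbouring pairs had overlapping library ranges, those 3 lowest genes among them, so their order is not resolved.

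Of the TFEB family, Mitf had the most reads, Tfe3 was not testable, and neither Mitf nor Tfeb was called in any comparison. Their countable shares were 57.3% (Mitf), 48.9% (Tfeb) and 9.5% (Tfe3). The read counts were not scaled to these shares, and those of Tfe3 cannot be read as low expression. Mitf (chromosome 6, 97807052 to 98021349, plus strand) stood at 5.44, 6.44 and 6.79 CPM in Luc siRNA ethanol libraries and 6.78, 7.83 and 5.75 CPM in Crebl2 siRNA ethanol libraries. In rapamycin it stood at 7.32, 7.13 and 6.86 CPM in Luc siRNA libraries and 7.81, 7.81 and 7.15 CPM in Crebl2 siRNA libraries. Its log2 fold changes lay between 0.10 and 0.19 with an SE of 0.12, and 3095 of its reads were counted for the single transcript Mitf-202. Mitf has 6 listed transcripts, and reads in bases that they share may be uncounted, so this does not show which was expressed. Tfeb (chromosome 17, 47737030 to 47792419, plus strand) was near the count limit, at 1.08, 0.69 and 0.247 CPM in Luc siRNA ethanol libraries and 0.229, 0.21 and 0.647 CPM in Crebl2 siRNA ethanol libraries. In rapamycin the values were 0.776, 0.907 and 0.912 CPM and 0.558, 0.522 and 0.335 CPM in the same order, without overlap, while those in ethanol overlapped. The log2 fold changes of Tfeb for the Crebl2 siRNA were −0.87 ± 0.46, adjusted p = 0.15 in ethanol and −0.86 ± 0.43, adjusted p = 0.14 in rapamycin (± SE), with 95% intervals of −1.76 to 0.03 and −1.71 to −0.01. At a mean of 22.7 counts per library these intervals reach from a large fall to almost no change, and neither comparison passed the adjusted threshold.

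Cells with the Crebl2 siRNA had lower levels of many lysosomal enzymes, led by Naglu and Gm2a, and higher levels of Ctsl and Ids. Of 22 tested enzymes and cofactors, 11 fell and 3 rose in ethanol, and 10 fell and 2 rose in rapamycin (63.6% and 54.5% called). In ethanol 15 of 38 tested members fell and 4 rose (50%), where 38.4% of all 13247 tested genes were called (17% lower and 21.4% higher). In rapamycin 11 fell and 4 rose (39.5%), against a background of 33.1% (16.8% lower and 16.3% higher). The median log2 fold change of the members was −0.12 in ethanol and −0.10 in rapamycin, against 0.01 and −0.01 over all tested genes. These 2 comparisons share no library: 10 members were lower in both, 3 were higher in both and 0 were called in opposite directions. Such counts were not made over all tested genes, of which 1.2% were called in the interaction. This likeness can therefore not be read as a trait of the members. The 11 falls in rapamycin became 7 without Luc siRNA rapamycin replicate 2 or without Crebl2 siRNA rapamycin replicate 1. In bulk RNA, fewer cells with a transcript and less of it per cell cannot be told apart. Calls come from edgeR's quasi-likelihood F test at 0.05 after Benjamini-Hochberg adjustment across the whole table, and changes in parentheses are log2 fold changes ± SE.

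Naglu (chromosome 11, 101070012 to 101077672, plus strand) encodes the N-acetylglucosaminidase of heparan sulfate breakdown. It stood at 74.2, 67.9 and 68.7 CPM in Luc siRNA ethanol libraries and 44.1, 38.5 and 42.9 CPM in Crebl2 siRNA ethanol libraries (−0.75 ± 0.06, adjusted p = 2.7e-07). In rapamycin it stood at 69.5, 78.2 and 73.9 CPM and 44.3, 48.5 and 46.9 CPM (−0.67 ± 0.06, adjusted p = 9.5e-07), and all 6 Crebl2 siRNA libraries lay below all 6 Luc siRNA libraries. Gm2a (chromosome 11, 55098115 to 55113029, plus strand), the activator protein that presents ganglioside GM2 to hexosaminidase, separated in the same way. It stood at 79.6, 72.8 and 75.1 CPM against 44.8, 45.3 and 46.7 CPM in ethanol (−0.73 ± 0.04, adjusted p = 9.7e-09), Luc siRNA first. In rapamycin the values were 89.7, 87.7 and 90.7 CPM against 51.4, 50.8 and 51.7 CPM (−0.80 ± 0.04, adjusted p = 4.2e-09). Hexa, the hexosaminidase subunit that acts with this activator, fell less, from 418 ± 8.43 to 339 ± 19.3 CPM (SD, n = 3) in ethanol (−0.30 ± 0.05) and from 432 ± 15 to 368 ± 16 CPM in rapamycin (−0.23 ± 0.05).

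Other glycosidases did not move as a block. Glb1, the acid beta-galactosidase (chromosome 9, 114401076 to 114474898, plus strand), was 153, 146 and 155 CPM in Luc siRNA ethanol libraries and 119.6, 111 and 123 CPM in Crebl2 siRNA ethanol libraries, without overlap (−0.36 ± 0.05, adjusted p = 2.2e-05). In rapamycin Glb1 also fell (−0.28 ± 0.05, adjusted p = 3e-04). Gla, the alpha-galactosidase A whose loss causes Fabry disease (chromosome X, 134588149 to 134601125, minus strand), went the other way, at 32.7, 33.2 and 34.3 CPM in Luc siRNA ethanol libraries and 37.6, 38.8 and 39.6 CPM in Crebl2 siRNA ethanol libraries (0.21 ± 0.05, adjusted p = 0.0044). In rapamycin its value was 0.14 ± 0.05 and missed the threshold (adjusted p = 0.05 as rounded). The sialidase Neu1 and the mannosidases Man2b1 and Manba had values from −0.05 to 0.08 in these 2 comparisons, and none was called. Gusb, beta-glucuronidase, was not called in either (0.08 ± 0.04 and −0.10 ± 0.04).

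The sulfatases were called in both comparisons, in different directions. Arsa, which acts on sulfatide (chromosome 15, 89472476 to 89477425, minus strand), fell from 189.8, 171 and 178 to 137, 133 and 152 CPM in ethanol (−0.35 ± 0.06, adjusted p = 0.00021) and from 203, 221 and 203 to 159, 155 and 168 CPM in rapamycin (−0.38 ± 0.06, adjusted p = 0.00013). Arsb, which acts on dermatan sulfate, fell from 107 ± 9.14 to 86.7 ± 2.58 CPM in ethanol (−0.30 ± 0.06) and from 104 ± 2.77 to 76.6 ± 3.21 CPM in rapamycin (−0.44 ± 0.06). Ids, iduronate 2-sulfatase (chromosome X, 70343069 to 70365084, minus strand), rose from 123, 127 and 134 to 174, 170.2 and 162 CPM in ethanol (0.40 ± 0.05, adjusted p = 8.7e-06) and from 169, 156 and 162 to 185, 181 and 178 CPM in rapamycin (0.16 ± 0.05, adjusted p = 0.015). For each of the 3 sulfatases the libraries of the siRNA groups did not overlap, in ethanol or in rapamycin. The counting strand is not given, and 51.8% of the countable bases of Arsb and 80.2% of those of Arsa are also free of genes on the opposite strand, so without strand information the remainder cannot be told apart from antisense reads.

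Cathepsins split likewise. Ctsl, a broad endopeptidase (chromosome 13, 64359337 to 64370890, minus strand), was 1316, 1281 and 1305 CPM in Luc siRNA ethanol libraries and 1836, 1809 and 1914 CPM in Crebl2 siRNA ethanol libraries (0.51 ± 0.04, adjusted p = 1.5e-07). In rapamycin it was 1054, 1053 and 1025 CPM and 1239, 1319.8 and 1282 CPM (0.29 ± 0.04, adjusted p = 4.2e-05), again without overlap. Ctsf (chromosome 19, 4855130 to 4860918, plus strand), a rarer cysteine protease, fell from 20.5, 19 and 18.8 to 12.9, 11.3 and 14.9 CPM in ethanol (−0.57 ± 0.09, adjusted p = 8.7e-05) and from 38.4, 42.7 and 39.4 to 33.8, 31.8 and 35.6 CPM in rapamycin (−0.25 ± 0.08, adjusted p = 0.023). Ctsz fell slightly in both (−0.18 ± 0.06 and −0.20 ± 0.06), with overlapping libraries in ethanol. Ctsb fell in rapamycin (−0.14 ± 0.05, adjusted p = 0.027) and was −0.11 ± 0.05 in ethanol, not called (adjusted p = 0.077).

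Among lipid hydrolases and cofactors, Ppt1, which removes palmitate from proteins, fell in both comparisons (−0.30 ± 0.07 and −0.30 ± 0.07). The acid ceramidase Asah1 (−0.26 ± 0.06) and the acid sphingomyelinase Smpd1 (−0.21 ± 0.05) fell in ethanol, and in rapamycin their values of −0.11 ± 0.06 and −0.11 ± 0.05 were not called. Tpp1, a tripeptidyl peptidase, and Grn were not called in either comparison, with values between −0.08 and 0.05. Psap, precursor of the saposins, had a countable share of 3.5% and a mean of 23 counts, and its values of 0.08 ± 0.32 and −0.20 ± 0.28 leave its direction unresolved.

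Of the 5 membrane protein genes, 1 fell in ethanol and 0 were called in rapamycin with the Crebl2 siRNA. Of all tested genes 38.4% and 33.1% were called. Lamp1 (chromosome 8, 13159161 to 13175338, plus strand) was 1911, 1783 and 1812 CPM in Luc siRNA ethanol libraries and 1689.9, 1777 and 1850.5 CPM in Crebl2 siRNA ethanol libraries, and the ranges overlapped. The 95% intervals of its log2 fold change were −0.14 to 0.04 there and −0.08 to 0.10 under rapamycin. The calcium channel gene Mcoln1 had intervals of −0.20 to −0.00 and −0.09 to 0.11, and neither gene was called. Scarb2, the receptor that carries glucocerebrosidase to lysosomes, fell in ethanol (−0.12 ± 0.04, adjusted p = 0.033). Cd63, a tetraspanin, rested on 10.3 counts per library and was not called (−0.76 ± 0.48 and 0.50 ± 0.47). Lamp2 summed over its transcripts was not called in any comparison, and its transcripts are given apart here. The transcript Lamp2-202 ranged from 135 to 235 CPM with wide spread in every group and was not called. Lamp2-201 stood at 22.4, 22 and 23 CPM in Luc siRNA ethanol libraries and 16.9, 20.3 and 17.7 CPM in Crebl2 siRNA ethanol libraries. These counts were not scaled to the bases that each transcript has alone, so they do not rank the transcripts by abundance. Lamp2-201 was lower in Crebl2 siRNA ethanol libraries when each transcript was tested alone (−0.32 ± 0.08, adjusted p = 0.0051), a test added after the data were seen. In rapamycin its values were 26.5, 23.8 and 26.9 CPM and 25.8, 22.1 and 22.8 CPM (−0.09 ± 0.08, not called).

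The proton pump had 9 tested members of 12, of which 1 rose and 3 fell in ethanol and 2 rose and 1 fell in rapamycin. These are 44.4% and 33.3% of the tested pump members, against 38.4% and 33.1% of all tested genes. In the V1 sector, Atp6v1e1, a stator subunit, fell from 226, 217 and 218 to 178, 177 and 185 CPM in ethanol (−0.29 ± 0.04, adjusted p = 5e-05) and also in rapamycin (−0.17 ± 0.04, adjusted p = 0.0048). Atp6v1f, a subunit of the central rotor (chromosome 6, 29467718 to 29470512, plus strand), fell in ethanol from 25.6, 21.7 and 22.4 to 17, 13.6 and 16.9 CPM (−0.55 ± 0.10, adjusted p = 0.00056). Its values overlapped in rapamycin, at 23.9, 27.8 and 22.1 and 20.2, 23.2 and 22.5 CPM (−0.17 ± 0.10), and 58% of its bases were countable. Atp6v1c1 rose slightly in both (0.13 ± 0.04, adjusted p = 0.021 and 0.12 ± 0.04, adjusted p = 0.049). Atp6v1b2, which encodes an ATP-binding subunit, rose in rapamycin (0.11 ± 0.04, adjusted p just under the threshold and 0.05 as rounded) and was 0.09 ± 0.04 in ethanol. In the V0 sector Atp6v0d1 fell in ethanol (−0.13 ± 0.05, adjusted p = 0.038), with overlapping libraries. Atp6v0b, Atp6v0c and Atp6v1a were not called in any comparison. They had countable shares of 6.5%, 42.7% and 8.62%, and Atp6v0c also has annotated pseudogenes that could take or give reads.

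**Figure D3:**
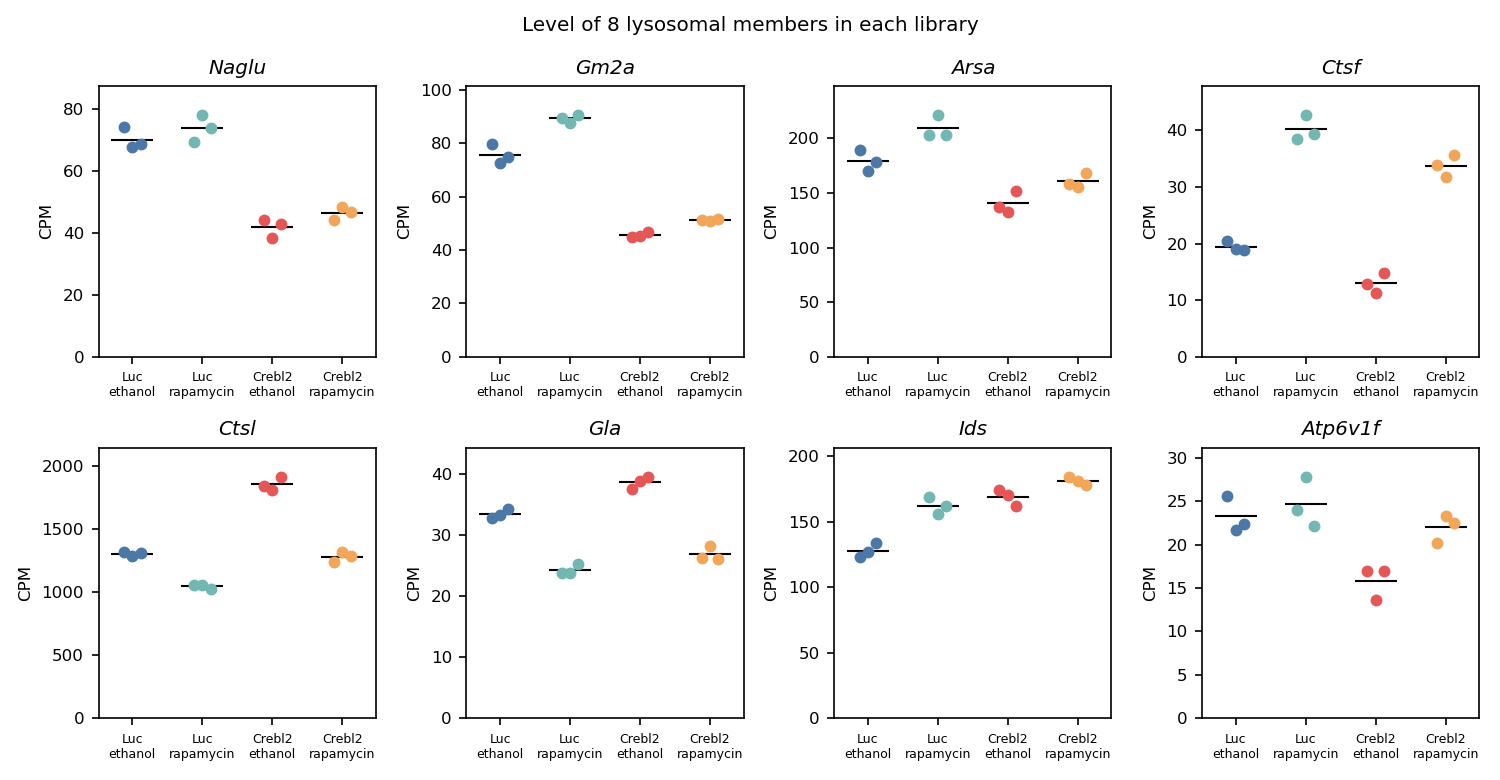
CPM after TMM scaling (y axis, from 0) in each of the 12 libraries for 8 members; points are libraries, coloured by group, and lines are means of 3. Naglu, Gm2a and Arsa were lower in all 6 Crebl2 siRNA libraries than in the 6 Luc siRNA libraries, and Ctsf was above its ethanol level in all 6 rapamycin libraries.

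Rapamycin moved lysosomal genes in both directions, among them a rise of Ctsf and falls of Gla, Ctsl and Gusb with each siRNA. The share of members called was below that of the whole table. With the Luc siRNA 7 of 38 tested members rose and 8 fell (39.5%), against 41.1% of all tested genes (19.5% higher and 21.6% lower). With the Crebl2 siRNA 8 rose and 7 fell (39.5%), against 45.3% (19.7% higher and 25.6% lower). The median of the members was 0.02 with the Luc siRNA and 0.11 with the Crebl2 siRNA, and those of all tested genes were 0.02 and −0.01. The 2 rapamycin comparisons share no library, and 5 members rose in both, 6 fell in both and 0 were called in opposite directions. Here too all tested genes were not counted this way, so the likeness cannot be read as a trait of the members. The 7 rises became 3 without Luc siRNA rapamycin replicate 2 and the 8 falls 5 without Luc siRNA ethanol replicate 2, ethanol replicate 3 or rapamycin replicate 3. The 8 rises with the Crebl2 siRNA became 13 with DESeq2, with RLE scaling or in a fit of the 2 groups alone, and 16 at a minimum count of 50. Each rapamycin comparison does share libraries with each siRNA comparison, so values are set side by side without a measure of likeness.

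Ctsf had the largest rapamycin change of the tested members with either siRNA. From the ethanol values given above it rose to 38.4, 42.7 and 39.4 CPM in Luc siRNA libraries (1.05 ± 0.08, adjusted p = 6e-08) and to 33.8, 31.8 and 35.6 CPM in Crebl2 siRNA libraries (1.37 ± 0.08, adjusted p = 3.3e-09). All 6 rapamycin libraries lay above all 6 ethanol libraries. Ctsl fell with the Luc siRNA (−0.32 ± 0.04, adjusted p = 1.1e-05) and with the Crebl2 siRNA (−0.53 ± 0.04, adjusted p = 3e-08). Its mean level was 1301 ± 18.1 CPM in Luc siRNA ethanol libraries and 1280.2 ± 40.2 CPM in Crebl2 siRNA rapamycin libraries, where the library ranges overlapped. Gla fell to 23.8, 23.8 and 25.2 CPM in Luc siRNA libraries (−0.46 ± 0.05, adjusted p = 4e-06) and to 26.2, 28.1 and 26.1 CPM in Crebl2 siRNA libraries (−0.53 ± 0.05, adjusted p = 6.5e-07). The cathepsins thus held members that moved in opposite directions.

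Gusb (chromosome 5, 129989011 to 130003049, minus strand) was 109, 108 and 110.4 CPM in ethanol and 95, 91.2 and 93.7 CPM in rapamycin with the Luc siRNA (−0.23 ± 0.04, adjusted p = 0.00019). With the Crebl2 siRNA it was 113, 116 and 116 CPM in ethanol and 86.2, 87.7 and 86.9 CPM in rapamycin (−0.41 ± 0.04, adjusted p = 3.7e-07), and rapamycin libraries lay lower in each case. Manba fell a little with both (−0.13 ± 0.05 and −0.18 ± 0.05). Rises with both siRNAs were smaller than that of Ctsf: Arsa (0.22 ± 0.06 and 0.19 ± 0.06), Gm2a (0.24 ± 0.04 and 0.17 ± 0.04), Grn (0.19 ± 0.05 and 0.20 ± 0.05) and Lamp1 (0.14 ± 0.05 and 0.20 ± 0.05). Lamp1 stood at 1989.8, 2113 and 1974 CPM in Luc siRNA rapamycin libraries and 2023, 2015 and 2082 CPM in Crebl2 siRNA rapamycin libraries, all above the ethanol libraries.

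Some members were called with 1 siRNA. Ids (0.34 ± 0.05, adjusted p = 2.5e-05) and Man2b1 (0.20 ± 0.06, adjusted p = 0.011) rose with the Luc siRNA, while with the Crebl2 siRNA they were 0.10 ± 0.05 and 0.12 ± 0.06. Tpp1 (0.18 ± 0.04, adjusted p = 0.0027), Mcoln1 (0.16 ± 0.05, adjusted p = 0.013) and Atp6v1f (0.47 ± 0.10, adjusted p = 0.0015) rose with the Crebl2 siRNA, and Arsb fell (−0.18 ± 0.06, adjusted p = 0.019). With the Luc siRNA these 4 were 0.09 ± 0.04, 0.05 ± 0.05, 0.09 ± 0.10 and −0.04 ± 0.06. The interaction for these genes did not pass the test, so a difference between the siRNAs was not shown. Lamp2-201, tested alone, was 0.39 ± 0.08 with the Crebl2 siRNA (adjusted p = 0.00084) and 0.16 ± 0.08 with the Luc siRNA (not called).

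Several V1 subunits of the pump were lower in rapamycin, though the share of pump members called was near or below that of all tested genes (44.4% against 41.1% with the Luc siRNA, 33.3% against 45.3% with the Crebl2 siRNA). In Luc siRNA cells 4 of the 9 tested pump members fell and 0 rose, and in Crebl2 siRNA cells 2 fell and 1 rose, and all of these belong to V1. Atp6v1b2 (chromosome 8, 69088646 to 69113711, plus strand) went from 299, 299 and 305 to 252, 250.5 and 249 CPM in Luc siRNA libraries (−0.27 ± 0.04, adjusted p = 4.9e-05). In Crebl2 siRNA cells it went from 308, 328 and 327 to 268, 271 and 269.6 CPM (−0.25 ± 0.04, adjusted p = 6.4e-05), and no rapamycin library reached an ethanol library. Atp6v1c1 fell alongside it (−0.25 ± 0.04 and −0.27 ± 0.04). Atp6v1d (−0.13 ± 0.05, adjusted p = 0.039) and Atp6v1e1 (−0.11 ± 0.04, adjusted p = 0.04) fell with the Luc siRNA and were −0.06 ± 0.05 and 0.01 ± 0.04 with the Crebl2 siRNA. The exception was Atp6v1f, which rose with the Crebl2 siRNA.

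**Figure D4:**
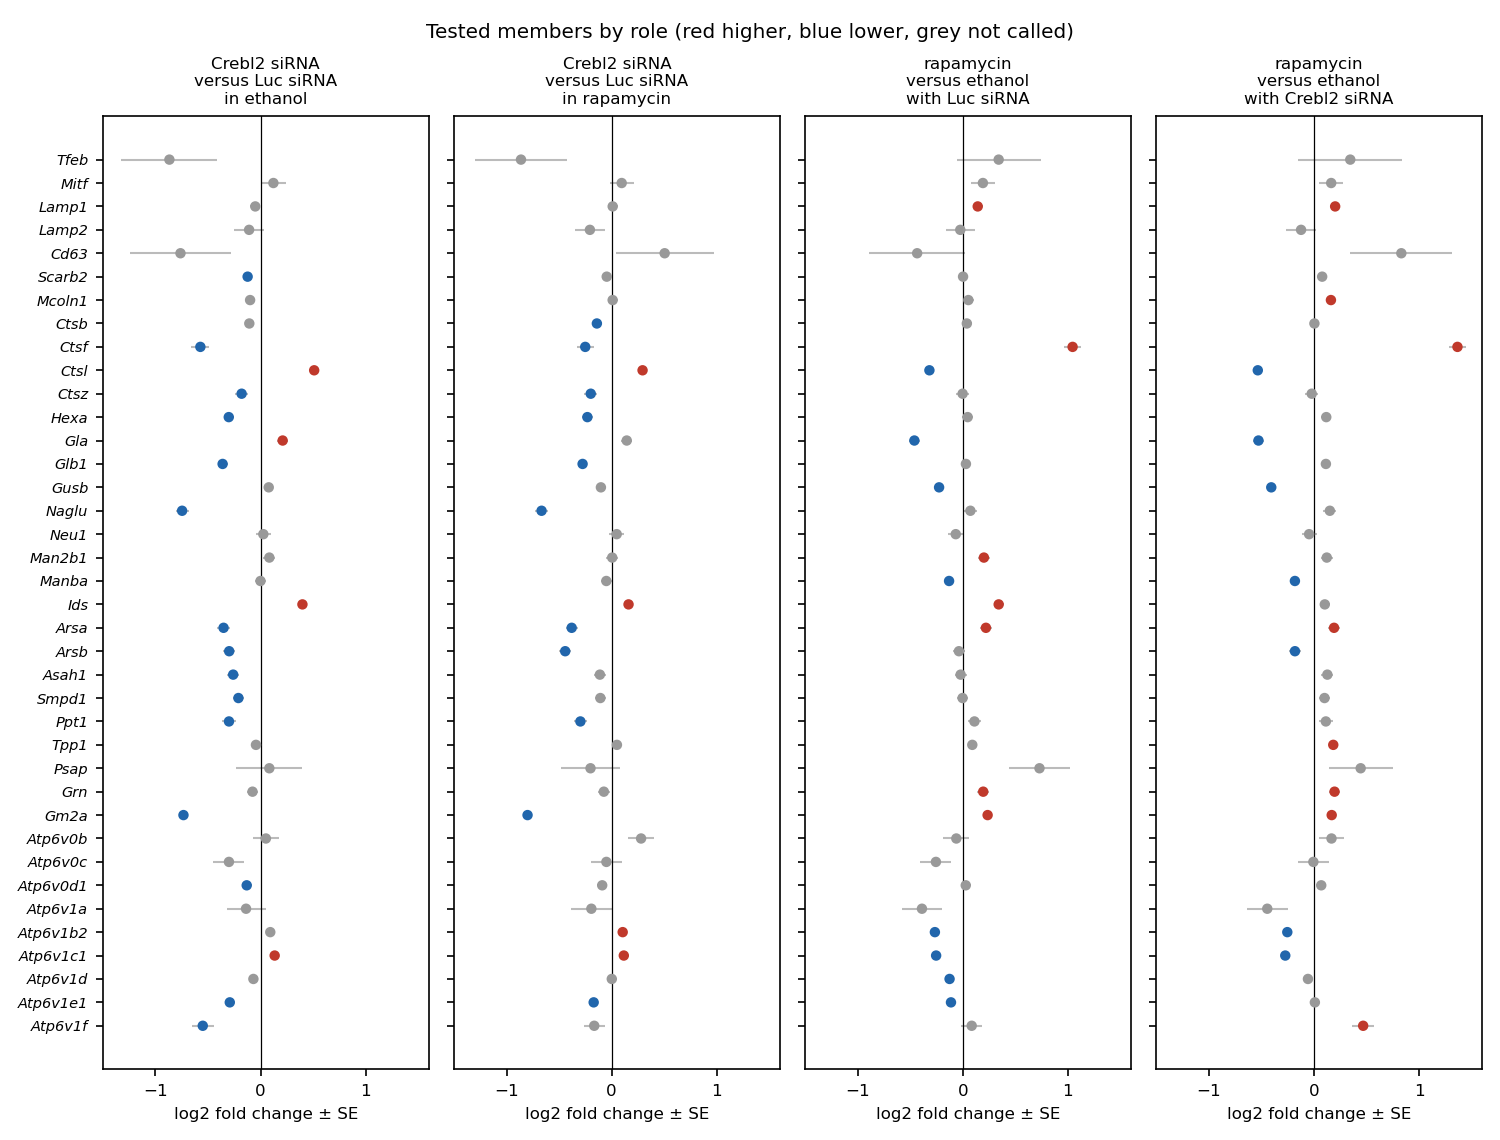
Log2 fold change ± SE (x axis) of the 38 tested members, ordered by role, in the 4 pairwise comparisons; red points were called higher, blue lower and grey not called at an adjusted p under 0.05. Blue points make up 15 and 11 members in the Crebl2 siRNA panels, and Ctsf stands out at 1.05 and 1.37 in the rapamycin panels.

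Whether the Crebl2 siRNA changed the answer to rapamycin was tested by the interaction, the rapamycin change in Crebl2 siRNA cells less the change in Luc siRNA cells. By edgeR 0 of 38 tested members were called, 5 had an unadjusted p under 0.05, and 1.2% of all tested genes were called (0.611% higher and 0.589% lower). DESeq2 called 1 member, Ctsl, lower (adjusted p = 0.023), and 7 had an unadjusted p under 0.05. With no count filter edgeR called 2 members higher, Ctsf (adjusted p = 0.027) and Atp6v1f (adjusted p = 0.0087). The 5 members were Ctsl (−0.22 ± 0.06, adjusted p = 0.078), Ids (−0.24 ± 0.07, adjusted p = 0.096), Gusb (−0.18 ± 0.05, adjusted p = 0.13), Ctsf (0.32 ± 0.12, adjusted p = 0.22) and Atp6v1f (0.38 ± 0.14, adjusted p = 0.23). For Naglu and Gm2a the 95% intervals of the interaction were −0.09 to 0.25 and −0.19 to 0.06. A p that misses the threshold does not show that the answers were alike.

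Over the 38 tested members the Crebl2 siRNA changes in ethanol and in rapamycin had Pearson r = 0.647 and Spearman rho = 0.719, with the same sign in 31. Over the 27 members with at least 90% countable bases they were 0.922 and 0.955, with the same sign in 23. The rapamycin changes with each siRNA gave r = 0.711 and rho = 0.736 over 38 members (same sign in 33) and r = 0.949 and rho = 0.885 over 27 (same sign in 24). These describe genes within shared cells and are no test, and they were not computed over all tested genes. Cd63, which differed most between the 2 comparisons of each pair, had 10.3 counts per library.

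**Figure D5:**
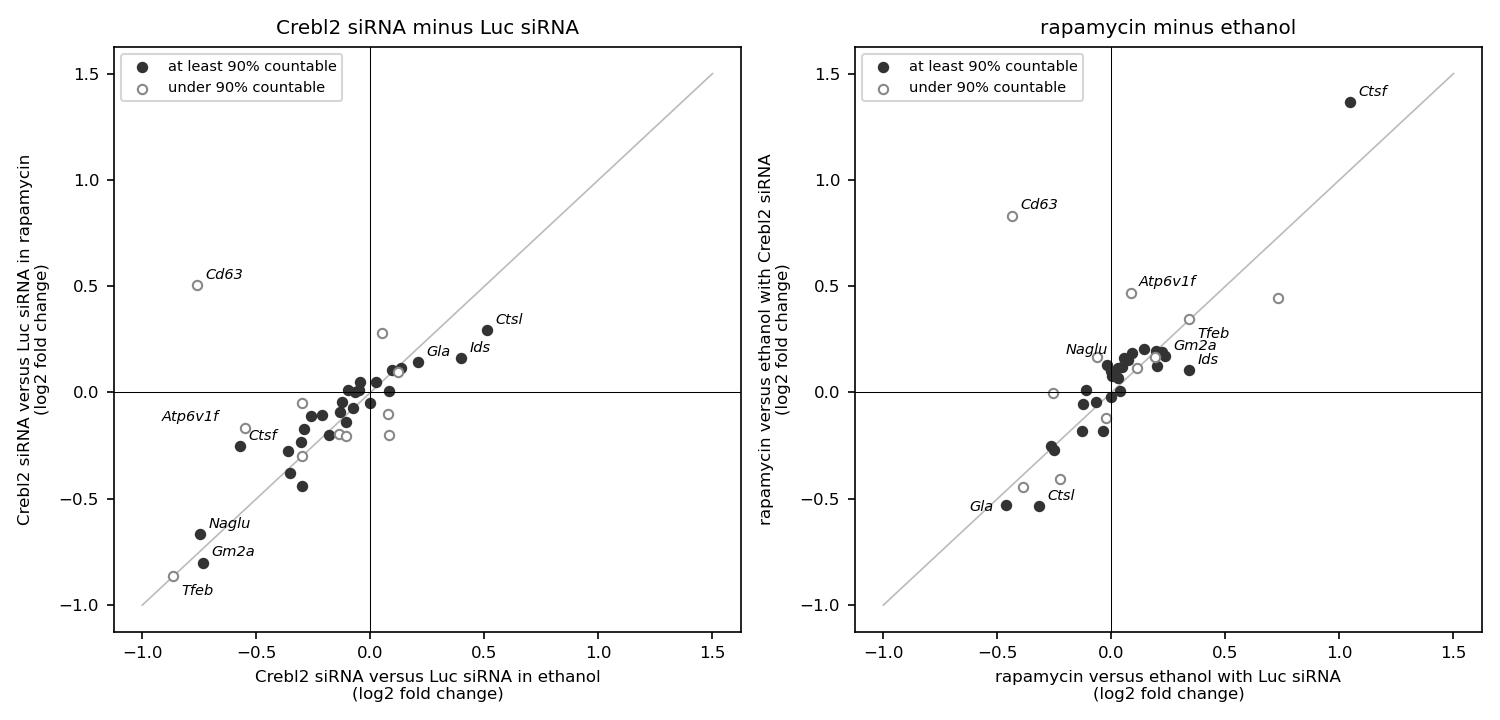
Log2 fold changes of the 38 tested members, Crebl2 siRNA in ethanol (x axis) and rapamycin (y axis) at left, and for rapamycin with the Luc siRNA (x axis) and the Crebl2 siRNA (y axis) at right; filled points have at least 90% countable bases and the grey line marks equal changes. At left the low-count Tfeb lies lowest on both axes, and Naglu and Gm2a lie lowest among the filled points. Ctsf lies at the high end at right, while Cd63, with 10.3 counts per library, has opposite signs on the axes of each panel.

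Calls in both directions occurred among members with and without CACGTG in the promoter window. For the Crebl2 siRNA in ethanol, 2 of 11 tested members with the core rose and 5 fell, and 1 of 23 without it rose and 9 fell, with medians of −0.13 and −0.12, beside 21.4% higher and 17% lower over all tested genes. The 4 tested members with no window, Asah1, Atp6v1b2, Atp6v1c1 and Ctsb, are in neither count. In rapamycin with the Crebl2 siRNA against the Luc siRNA the counts were 1 and 4 with the core and 1 and 6 without, with medians of −0.09 and −0.10. Of all tested genes 16.3% were higher and 16.8% lower there. Rapamycin raised 3 and lowered 2 members with the core with the Luc siRNA, against 4 and 4 without it, and raised 4 and lowered 2 against 4 and 3 with the Crebl2 siRNA. Of all tested genes 19.5% were higher and 21.6% lower with the Luc siRNA, and 19.7% and 25.6% with the Crebl2 siRNA. Members printed above with a core include Naglu, Glb1 and Arsa, which fell with the Crebl2 siRNA, and Ctsl and Gla, which rose in ethanol. No test was made of this split.

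Other lysosomal genes outside the members were counted from 5 lists of 79 genes, of which 59 were tested. The Crebl2 siRNA raised 10 and lowered 16 in ethanol, and 10 rose and 14 fell in rapamycin, which is 44.1% and 40.7% called against 38.4% and 33.1% of all tested genes. With rapamycin 12 rose and 10 fell with the Luc siRNA, and 13 rose and 16 fell with the Crebl2 siRNA, which is 37.3% and 49.2% against 41.1% and 45.3%. In the list of other hydrolases and activators (22 of 27 tested), 8 fell and 2 rose with the Crebl2 siRNA in ethanol and 7 fell and 2 rose in rapamycin. These are 45.5% and 40.9% called, against 38.4% and 33.1% of all tested genes. The acid phosphatase Acp2 fell with the Crebl2 siRNA (−0.35 ± 0.04 and −0.23 ± 0.04) and rose with rapamycin (0.32 ± 0.04 and 0.43 ± 0.04). Galc, galactosylceramidase, rose with the Crebl2 siRNA (0.38 ± 0.05 and 0.43 ± 0.05). Rapamycin raised 7 of this list and lowered 2 with each siRNA (40.9% called in each, against 41.1% and 45.3% of all tested genes). Fuca1, alpha-fucosidase, was among those raised (0.21 ± 0.04 and 0.20 ± 0.04).

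In the list of other membrane and transport genes (15 of 19 tested), 5 rose and 2 fell with the Crebl2 siRNA, in ethanol and in rapamycin (46.7% called in each, against 38.4% and 33.1% of all tested genes). Tpcn1, a channel of endosomes and lysosomes, stood at 399.9, 401 and 421 CPM in Luc siRNA ethanol libraries and 555, 497 and 545 CPM in Crebl2 siRNA ethanol libraries (0.39 ± 0.05, adjusted p = 2.9e-05), rose also in rapamycin (0.42 ± 0.05) and fell with rapamycin (−0.45 ± 0.05 and −0.41 ± 0.05). Laptm4b followed the same order of signs (0.21, 0.16, −0.30 and −0.35), and Litaf rose in all 4 (0.23, 0.24, 0.11 and 0.12). Npc2, which hands cholesterol to the membrane protein Npc1, rose with rapamycin from 1313, 1268 and 1253 to 1828, 1949 and 1735 CPM in Luc siRNA libraries (0.52 ± 0.05, adjusted p = 4.5e-07). In Crebl2 siRNA cells Npc2 rose from 1355, 1328 and 1416 to 2134, 2284 and 2290.4 CPM (0.71 ± 0.05, adjusted p = 1.2e-08), so the 6 rapamycin libraries lay highest. In this list rapamycin raised 3 and lowered 3 with the Luc siRNA, and raised 2 and lowered 5 with the Crebl2 siRNA. These are 40% and 46.7% called, against 41.1% and 45.3% of all tested genes.

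Of the other V-ATPase subunits (8 of 13 tested), rapamycin raised 1 and lowered 3 with the Luc siRNA and raised 2 and lowered 4 with the Crebl2 siRNA (50% and 75% called, against 41.1% and 45.3% of all tested genes). The Crebl2 siRNA raised 1 and lowered 1 in ethanol and raised 2 and lowered 1 in rapamycin. These are 25% and 37.5% called, against 38.4% and 33.1% of all tested genes. Atp6ap2, the prorenin receptor and pump accessory protein, fell in rapamycin from 189, 199 and 191 to 142, 139.8 and 147 CPM in Luc siRNA libraries (−0.43 ± 0.05, adjusted p = 1.1e-05) and as much with the Crebl2 siRNA (−0.43 ± 0.05, adjusted p = 8.9e-06). Atp6v1g1, a V1 stator subunit, was 648, 606 and 619.9 CPM in Luc siRNA ethanol libraries and 559, 557 and 592 CPM in Crebl2 siRNA ethanol libraries (−0.13 ± 0.04, adjusted p = 0.025). In rapamycin it was 604, 629 and 585 and 683, 683 and 701 CPM (0.19 ± 0.04, adjusted p = 0.0041), and its interaction was called (0.32 ± 0.06, adjusted p = 0.018), the 1 such call among the 59 tested pathway genes.

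The sorting list (5 of 9 tested) had 1 fall and 0 rises with the Crebl2 siRNA in ethanol and the same counts in rapamycin. That is 20% called in each, against 38.4% and 33.1% of all tested genes. The falling gene was Gga2, an adaptor that picks up mannose 6-phosphate receptors, with −0.16 ± 0.04 and −0.13 ± 0.04. It also fell with rapamycin (−0.21 ± 0.04 and −0.18 ± 0.04), where the list had 1 fall and 0 rises with the Luc siRNA and 2 falls and 1 rise with the Crebl2 siRNA. The shares called were 20% and 60%, against 41.1% and 45.3% of all tested genes. In the list of TFEB control and target genes (9 of 11 tested), 2 rose and 4 fell with the Crebl2 siRNA in ethanol and 1 rose and 3 fell in rapamycin (66.7% and 44.4% called, against 38.4% and 33.1% of all tested genes). The calcineurin subunit Ppp3ca stood at 52.3, 51.6 and 45.4 CPM in Luc siRNA ethanol libraries and 36.7, 37.8 and 37.5 CPM in Crebl2 siRNA ethanol libraries (−0.42 ± 0.08, adjusted p = 0.0011). It fell in rapamycin too (−0.41 ± 0.08), as did Ppp3cb in both (−0.29 ± 0.09 and −0.47 ± 0.09). Ppp3ca and Ppp3cb had countable shares of 54.8% and 31.0%. Gpnmb, a glycoprotein gene that responds to this factor family, fell as well (−0.52 ± 0.12 and −0.33 ± 0.12).

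Rapamycin raised 1 and lowered 1 gene of that list with the Luc siRNA and raised 1 and lowered 3 with the Crebl2 siRNA. These are 22.2% and 44.4% called, against 41.1% and 45.3% of all tested genes. The autophagy receptor Sqstm1 rose, from 62.1, 57.6 and 54.1 to 69.8, 76.9 and 64.4 CPM in Luc siRNA libraries (0.28 ± 0.07, adjusted p = 0.0058) and from 55.7, 49.5 and 58.7 to 71.9, 76.7 and 75.2 CPM in Crebl2 siRNA libraries (0.45 ± 0.07, adjusted p = 0.00011). Its countable share was 33.2%, and 356 of its 936 countable bases are also free of genes on the opposite strand. Without the counting strand, the remainder cannot be told apart from antisense reads. Ppargc1a, a coactivator of mitochondrial genes, fell from 0.492, 0.666 and 0.715 to 0.111, 0.176 and 0.221 CPM in Luc siRNA libraries (−1.85 ± 0.31, adjusted p = 0.00019). With the Crebl2 siRNA it fell from 1.43, 0.9 and 1.17 to 0.398, 0.435 and 0.395 CPM (−1.51 ± 0.25, adjusted p = 0.00011), a level of few reads in every group. It was higher with the Crebl2 siRNA in ethanol (0.91 ± 0.23) and in rapamycin (1.25 ± 0.34).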

How the data were processed

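Total RNA of 12 C2C12 libraries was made into stranded libraries with a TruSeq Stranded Total RNA kit, per the labels. The deposited values are read counts for 58611 Ensembl transcripts, not normalized. The submitters' processing notes name the tools Trim Galore, TopHat and HTSeq and the builds mm9 and GRCm38. Versions, annotation, strand setting and the handling of reads shared by transcripts are not given in the sources used here.

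Of the transcript identifiers 99.41% matched GENCODE M21 (GRCm38), and their counts were summed to 38481 genes; the 347 unmatched ones held 0.0382% of reads. The test plan had assumed counts per gene. The countable share of a gene is the part of its exonic bases found in 1 listed transcript. Genes were filtered with filterByExpr (minimum count 10), given TMM factors and tested by quasi-likelihood (edgeR 4.0.16, R 4.3.3), in 1 fit of all 12 libraries with a mean for each of 4 groups, over 13247 genes, with Benjamini-Hochberg adjustment at 0.05. SE was taken from the fold change and the F statistic, intervals were 1.96 SE each way, and common biological variation was 6.9%. The fit was tested on simulated counts. DESeq2 1.42.0, RLE scaling, other filters, a replicate block, the most counted transcript, 2-group fits and leaving out each library were alternatives; members with at least 90% countable bases and single transcripts were added after the data were seen.

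Named genes were Crebl2, the TFEB family, up to 8 called members each way in each pairwise contrast by size, and 3 genes of each pathway list and contrast by p. Other members are named to account for all 46. Cd63, Lamp2-201 and the marker genes were named after their values were seen. Members and lists were chosen with earlier results of these data known. Promoter windows came from RefSeq (GRCm38.p6). The values of 1 gene of the wider lists are not reported here.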

Additional observations from a re-analysis of the deposited data

Results flagged for a closer look

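Atp6v1g1, a V1 subunit of the proton pump outside the 46 members, had a rapamycin change that differed between the siRNAs by 0.32 on the log2 scale (edgeR interaction, adjusted p = 0.018). The myoblast markers Cdh15 and Itga7 had interactions of 0.41 (adjusted p = 0.024) and 0.39 (adjusted p = 0.019). For Gusb, the 3 Crebl2 siRNA libraries lay above the 3 Luc siRNA libraries in ethanol and below them in rapamycin, where the log2 fold change was −0.10. Neither difference was called, and the interaction of Gusb (−0.18, adjusted p = 0.13) missed the threshold.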

How the results depend on the processing

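Of the values of Crebl2 and the tested members among the alternatives run, 2546 kept their call or stayed uncalled, 86 lost and 78 gained a call. None that was called in either setting changed sign, while sign changes of values uncalled in both were not counted. Genes of the wider lists were not part of this check. RLE scaling and DESeq2 moved the median of all genes by at most 0.0296. The number of members rising with rapamycin and the Crebl2 siRNA depended most on the setting: 8 became 13 with RLE scaling, 13 with DESeq2, 13 with only the compared groups and 16 with a minimum count of 50. Without a filter 2 members gained a higher interaction, and DESeq2 gave 1 lower. The causes were not tested. Libraries with the same replicate number showed no clear shared deviation from their group means (correlations from −0.292 to 0.124 over 18 pairs). Pairs with different numbers ranged from −0.315 to 0.374 over 36 pairs. These values cannot show which libraries were prepared together. A replicate block changed the rises with the Crebl2 siRNA in rapamycin from 4 to 2 and the falls with rapamycin and the Luc siRNA from 8 to 5. Leaving out each library gave 3 to 5 rises and 12 to 19 falls with the Crebl2 siRNA in ethanol, and 3 to 5 and 7 to 9 in rapamycin. The same gave 3 to 7 rises and 5 to 9 falls with rapamycin and the Luc siRNA, 8 to 12 and 6 to 7 with the Crebl2 siRNA, and 0 and 0 for the interaction. The 7 falls in rapamycin came without Luc siRNA rapamycin replicate 2 or Crebl2 siRNA rapamycin replicate 1. The 3 rises came without Luc siRNA rapamycin replicate 2, and 5 falls came without Luc siRNA ethanol replicate 2 or 3 or rapamycin replicate 3. Low counts limit Tfeb, Cd63 and Psap.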
